A study of Mus musculus with 9 samples.

Results

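Antisense RNAs are transcribed from the strand opposite to a protein-coding gene, and the frontal cortex of Neat1-/- and wild-type mice expressed 345 of them at 1 CPM (a count scaled to the library total) or more. The members were chosen by their GENCODE vM21 gene type (antisense) and by their mean CPM over all 9 libraries, without regard to genotype, from 2062 genes of that type among the 43629 genes counted. Another 1701 antisense genes lay below the level, and 16 were dropped, 6 of them at or above it: Kcnq1ot1, Snhg14, Tsix, and genes within 5 Mb of Neat1 on chromosome 19. Because level chose the members, their levels are given as a description. The mean holds the libraries of both genotypes, so an RNA near the level can be a member only because it was high in a few libraries of 1 genotype.

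RNA sequencing was performed on frontal cortex of female C57BL/6 mice, with 4 Neat1-/- mice (replicates 1, 3, 4 and 5, aged 3, 3, 4 and 2 months) and 5 WT mice (replicates 1 to 5, aged 2, 2, 3, 4 and 4 months). In the Neat1-/- animals a lacZ cassette with polyadenylation signals sits just behind the Neat1 start site in every cell, so that transcription ends early while the locus itself stays in place. Libraries were built from total RNA after ribosomal RNA depletion, which keeps unspliced and nuclear RNA, and each held between 52629603 and 64648856 counts in Neat1-/- mice and between 51276067 and 62819932 counts in WT mice. Neat1 itself stood at 7.11 to 9.72 CPM in Neat1-/- mice, against 60.8 to 120 CPM in WT mice. The cortical neuron genes Slc17a7, Tbr1 and Cux2 stood between 71.1 and 887 CPM in Neat1-/- mice and between 63.9 and 936 CPM in WT mice.

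Antisense RNAs can start at the promoter of the coding gene they oppose and run away from it (head to head), run into its 3' end (tail to tail), or lie wholly inside it. Some, such as those at imprinted loci, silence genes in cis, others act in trans as scaffolds, and for most no role is known. Neat1 RNA builds the paraspeckle, a nuclear body that holds RNA-binding proteins and retains certain RNAs in the nucleus.

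Of the 345 antisense RNAs, 332 overlapped a coding gene on the other strand, in 391 pairs with 382 coding genes. By the longest overlap, 153 lay within the coding gene, 89 were head to head with it, 75 were tail to tail and 15 spanned it, while 13 had no coding partner. Exons of the antisense RNA overlapped exons of the coding gene in 230 members and did not in 102. The median exonic overlap was 7.14% of the antisense exons, and 13 members had an overlap of at least 50%. No strand setting of the counting is stated, so reads in a shared stretch of exon cannot be told apart between the partners, and 6 members also overlapped a coding gene on their own strand. Of the 89 head-to-head members, 13 began within 300 bases of the coding gene's start, and the median distance between the starts was 998 bases.

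The start regions of these RNAs differed by position. RefSeq windows on GRCm38.p6, from 250 bases before to 50 bases after the start, were matched for 184 of the 345 members. The number of CG dinucleotides, which cluster in the CpG islands of most housekeeping promoters, had a median of 16 in the head-to-head windows (n = 59) and 15 in the tail-to-tail windows (n = 45), but 5.5 in the windows of members within a coding gene (n = 70). The windows of the overlapping coding genes had a median of 21 (n = 259) and those of all 27025 genes in the table a median of 7. By this count at least 10 CG were present in 71.2% of head-to-head members with a window and in 25.7% of those within a coding gene, against 44.1% of all genes. The hexamer TATAAA was present on either strand in 9.24% of member windows and in 15.7% of all windows. Windows of 5 antisense RNAs described below are printed with every CG in capitals, first a pair of head-to-head RNAs that stood higher in Neat1-/- mice, then 3 RNAs that lie inside a long gene.
Gm26782, chr14:50870046-50870345 (+ strand): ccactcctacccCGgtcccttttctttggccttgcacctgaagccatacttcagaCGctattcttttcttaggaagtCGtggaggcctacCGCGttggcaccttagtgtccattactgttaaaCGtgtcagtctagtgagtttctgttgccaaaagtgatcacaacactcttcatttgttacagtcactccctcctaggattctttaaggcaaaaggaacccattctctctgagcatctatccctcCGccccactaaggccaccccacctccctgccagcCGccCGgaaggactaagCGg
A330041J22Rik, chr9:86695192-86695491 (+ strand): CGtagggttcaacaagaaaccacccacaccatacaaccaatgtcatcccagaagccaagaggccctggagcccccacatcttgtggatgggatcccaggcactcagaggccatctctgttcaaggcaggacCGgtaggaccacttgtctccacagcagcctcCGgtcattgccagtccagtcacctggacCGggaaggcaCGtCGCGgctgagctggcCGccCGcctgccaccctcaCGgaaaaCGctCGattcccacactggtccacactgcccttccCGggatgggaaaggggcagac
Nron, chr2:33805566-33805865 (+ strand): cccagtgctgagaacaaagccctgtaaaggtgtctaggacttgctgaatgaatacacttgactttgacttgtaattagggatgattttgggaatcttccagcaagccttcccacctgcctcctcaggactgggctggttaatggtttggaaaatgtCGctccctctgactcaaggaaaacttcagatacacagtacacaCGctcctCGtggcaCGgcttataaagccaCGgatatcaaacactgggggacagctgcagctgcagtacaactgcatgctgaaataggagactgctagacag
Pitpnm2os1, chr5:124229475-124229774 (+ strand): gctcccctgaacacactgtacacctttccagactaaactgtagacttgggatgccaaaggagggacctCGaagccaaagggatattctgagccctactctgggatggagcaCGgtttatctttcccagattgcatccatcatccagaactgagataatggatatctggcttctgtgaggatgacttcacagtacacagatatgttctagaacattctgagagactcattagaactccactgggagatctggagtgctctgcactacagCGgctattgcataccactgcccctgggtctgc
4932413F04Rik, chr9:103556840-103557139 (+ strand): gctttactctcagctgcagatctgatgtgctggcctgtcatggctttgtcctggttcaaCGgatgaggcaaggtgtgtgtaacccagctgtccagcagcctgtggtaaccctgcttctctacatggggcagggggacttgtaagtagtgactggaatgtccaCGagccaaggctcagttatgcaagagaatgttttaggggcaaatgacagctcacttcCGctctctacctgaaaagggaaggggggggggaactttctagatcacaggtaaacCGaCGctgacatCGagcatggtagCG
These windows held 10 CG for Gm26782, 13 for A330041J22Rik, 5 for Nron, 3 for Pitpnm2os1 and 7 for 4932413F04Rik, and of the 5 only that of Nron held TATAAA.

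Most members were weakly expressed. The median level was 1.98 TMM-normalized CPM, 22 members reached 10 CPM and 174 were under 2 CPM, with the count of a member in a single library running from 25 to 8424. The 8 highest members took 32.3% of the CPM of all 345. Tug1 (taurine upregulated gene 1, a conserved long noncoding RNA; chr11:3639785-3649673, minus strand, mm10), which is head to head with the chromatin ATPase gene Morc2a, was the highest, at 129, 134, 132 and 128 CPM in Neat1-/- mice and 138, 129, 123, 128 and 135 CPM in WT mice. The genotypes overlapped and the difference was 0.00 ± 0.04 on the log2 scale (SE).

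After Tug1 came 9530082P21Rik (chr17:23743234-23754065), which overlaps Kremen2, a receptor for Dickkopf inhibitors of Wnt signalling, at 104 to 110 CPM in Neat1-/- mice and 95.6 to 106 CPM in WT mice. The lowest Neat1-/- value lay below the highest WT value. 4933431E20Rik (chr3:107888850-107896213) stood at 61.6 to 65.1 CPM in Neat1-/- mice and 60.6 to 65.1 CPM in WT mice, and A830036E02Rik, opposite the keratin gene Krt12, at 45.1 to 57.6 CPM and 42.4 to 52.5 CPM. Rab10os, which meets the 3' end of the small GTPase gene Rab10, ranged from 46.5 to 48.7 CPM in Neat1-/- mice and from 44.6 to 48.3 CPM in WT mice. A830082K12Rik starts beside Nr2f1, a nuclear receptor gene of cortical area patterning, and 6330403L08Rik beside Pdgfa, which encodes a growth factor of oligodendrocyte progenitors. Their log2 differences were -0.03 ± 0.05 and 0.03 ± 0.06 (SE). None of the 8 highest members passed an unadjusted p of 0.05 in the edgeR fit.

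Of a list of antisense and related RNAs known from earlier work, which did not hold Tug1 or Nron, 4 were members. Dlx6os1 (Evf2), which binds DLX proteins in developing interneurons and spans Dlx6, stood at 25, 24.9, 26.0 and 22.9 CPM in Neat1-/- mice and 22.2, 24.7, 32.1, 28.0 and 26.1 CPM in WT mice. The highest values were those of WT replicates 3 and 4. Dlx1as averaged 2.25 ± 0.39 CPM in Neat1-/- mice (n = 4) and 2.52 ± 0.393 CPM in WT mice (SD, n = 5), Emx2os 2.48 ± 0.283 and 2.40 ± 0.444 CPM, and Zeb2os 1.54 ± 0.172 and 1.31 ± 0.176 CPM. All of these ranges overlapped between the genotypes. The imprinted Airn, at 0.802 CPM by library total, and Nkx2-2os, at 0.588 CPM, fell below the level.

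Per kilobase of exon, 35 members were higher than the coding gene they overlap most and 293 were lower, while 4 coding genes had no counts. The coding gene's level per kilobase was a median 9.14 times that of the antisense RNA, and 153 members had a coding gene at least 10 times higher. 9530082P21Rik had the highest level of any member, 21.5 CPM per kb against 0.292 CPM per kb for Kremen2, and 4933431E20Rik had 9.23 CPM per kb against 0.0112 CPM per kb for Eps8l3. Both also overlap a well-expressed gene: Flywch1, a zinc finger gene, stood at 53.2 CPM per kb, and Gstm5, a glutathione transferase gene, at 72.1 CPM per kb.

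**Figure D1:**
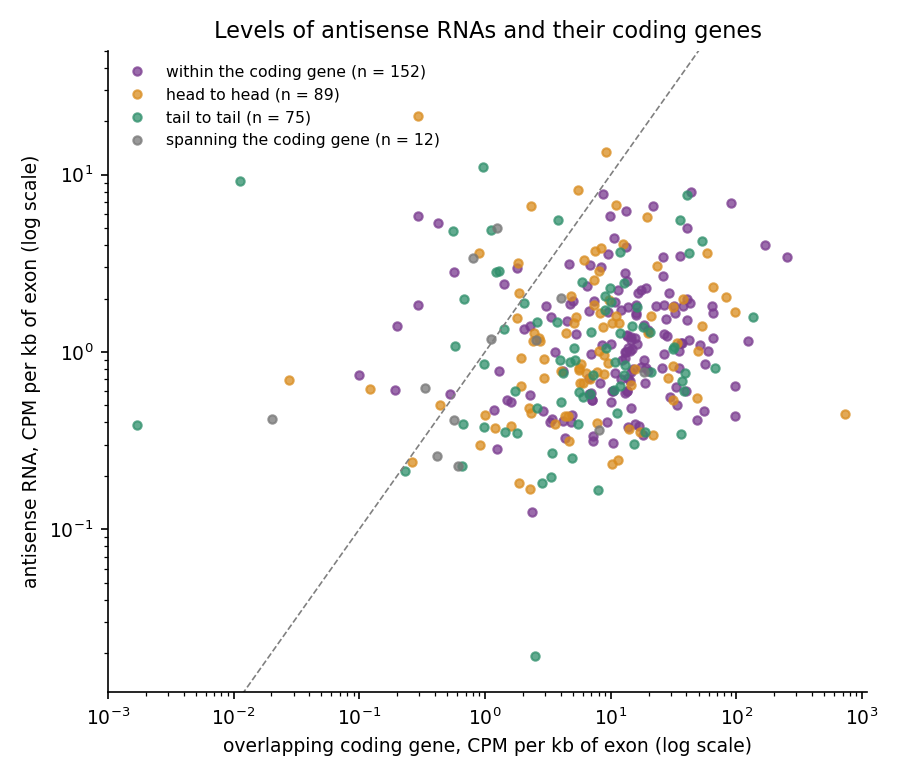
Level of each antisense RNA (vertical axis) against the coding gene it overlaps most (horizontal axis), both as mean TMM-normalized CPM per kb of exon over 9 libraries on log scales, colored by position, with the line of equal level dashed. Of the 328 members with a coding gene above 0, 293 lie on the side where the coding gene is higher.

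At the threshold, Gm11767, C920021L13Rik and 4930527B05Rik had mean CPM by library total of 1.0001, 1.0006 and 1.002, and 1810062O18Rik, 1810021B22Rik and Gm15496, just outside, had 0.996, 0.996 and 0.995.

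The libraries were not alike in these RNAs. Relative to its mean over the 9 libraries on the log2 scale, the median member stood between -0.08 and 0.01 in Neat1-/- mice and between -0.17 and -0.05 in WT replicates 1, 2 and 5, but at 0.27 and 0.20 in WT replicates 3 and 4. WT replicates 3 and 4 were the highest pair of libraries for 141 of the 345 members (40.9%), against 14.0% of all 19753 genes tested and 7.77% of protein-coding genes. Both libraries entered the mean that chose the members, so the rule itself can raise the members' share. The share was 65.9% among genes of type TEC (gene models awaiting experimental support) and 66.3% among sense intronic RNAs, which lie in introns on the coding strand. It was 32.1% among the 680 tested antisense genes under 1 CPM, 23.7% among long intergenic noncoding RNAs and 3.51% among bidirectional promoter noncoding RNAs. TEC and sense intronic genes together took 0.119% to 0.136% of the counts in Neat1-/- mice, 0.113% to 0.129% in WT replicates 1, 2 and 5, and 0.234% and 0.212% in WT replicates 3 and 4. Genes of choroid plexus and ependyma (8 of 9 tested, sum 18.9 to 30.2 CPM in Neat1-/- mice and 25.1 to 120 CPM in WT mice) were highest in WT replicate 3, with a list median 1.33 above the mean on the log2 scale, but at 0.14 in WT replicate 4. Meningeal genes (7 of 7 tested, sum 92.5 to 129 CPM in Neat1-/- mice and 40.7 to 253 CPM in WT mice) had a median of -1.12 in WT replicate 4 and 0.16 in WT replicate 3. The part of these tissues in the antisense values was not tested, and in bulk cortex fewer cells of a type and less RNA per cell cannot be told apart.

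The share of members that stood out in these libraries differed by position, in a graded way. Among the 81 members that lie within a coding gene and share no exon sequence with it, the library medians were between -0.19 and -0.07 in Neat1-/- mice, between -0.35 and -0.09 in WT replicates 1, 2 and 5, and 0.92 and 0.73 in WT replicates 3 and 4. WT replicates 3 and 4 were the highest pair for 79.0% of them. For the 72 members within a coding gene and with exonic overlap the share was 47.2%, for the 75 tail-to-tail members 40.0%, and for the 89 head-to-head members 11.2%, with medians of 0.06 and 0.06 in the same libraries. The 15 members that span a coding gene had a share of 13.3%, and the 13 without a coding partner 7.69%. The coding genes themselves (367 of 382 tested) had medians between -0.02 and 0.01 in all 9 libraries. By the other measure, WT replicates 3 and 4 were the highest pair for 15.5% of these coding genes, against 7.77% of all protein-coding genes. The 81 members lay in coding genes with a median length of 228 kb, against 32.3 kb for the partners of head-to-head members, and their windows had a median of 5 CG (n = 38).

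**Figure D2:**
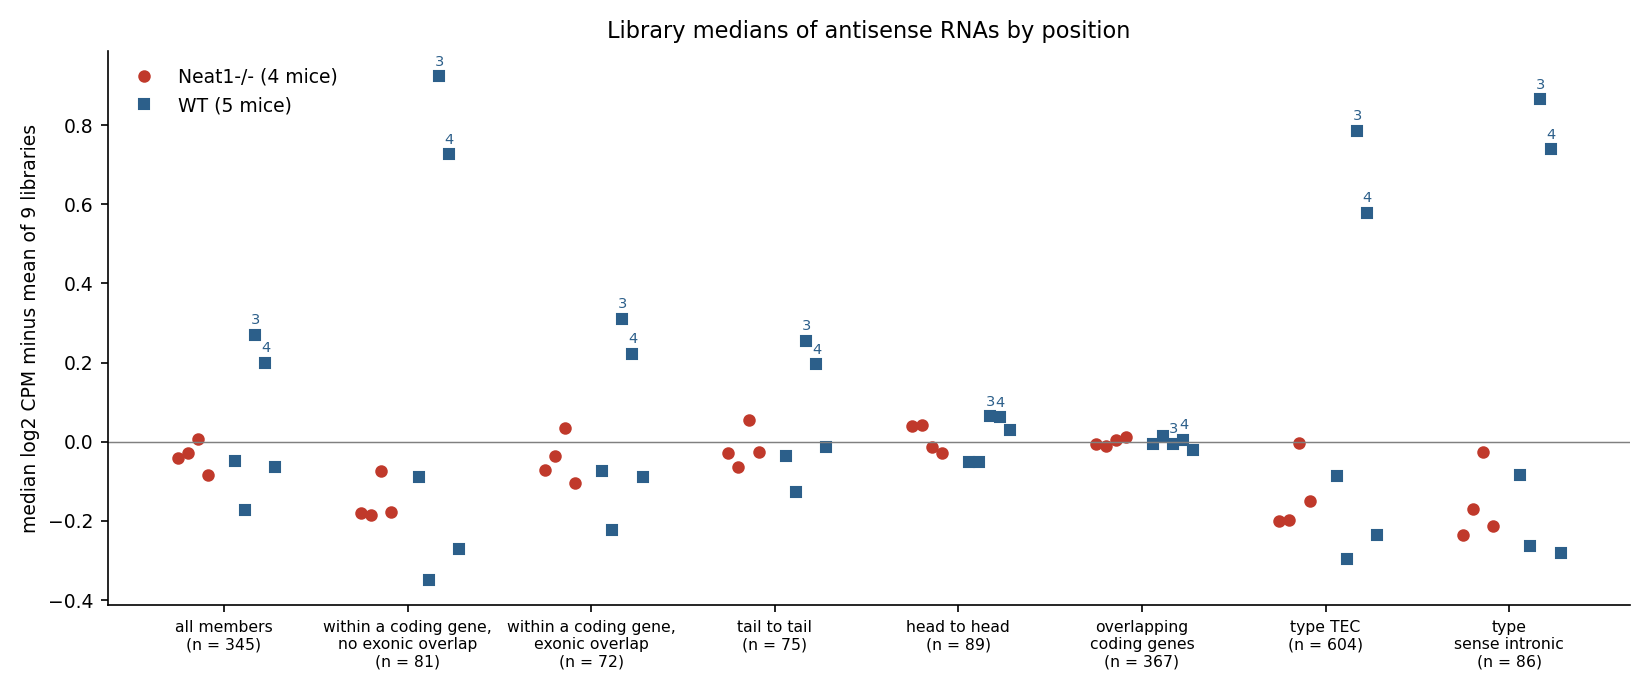
Median over genes of the log2 CPM relative to each gene's average over the 9 libraries (vertical axis), 1 point per mouse, for Neat1-/- mice (red circles, left) and WT mice (blue squares, right) in each set of genes, with WT replicates 3 and 4 numbered. These libraries stand at 0.92 and 0.73 in antisense RNAs within a coding gene and without exonic overlap, and at 0.06 and 0.06 in head-to-head members.

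Single genes of this kind showed the size of the gap. Gm15810 (chr13:42782692-42788258), inside Phactr1, which encodes a phosphatase and actin regulator, had 2.19, 2.18, 2.46 and 2.71 CPM in Neat1-/- mice and 2.24, 1.96, 8.59, 6.75 and 1.69 CPM in WT mice. WT replicates 3 and 4 stood apart from the other 7 libraries. Its log2 fold change of -0.78 did not pass an unadjusted p of 0.05, and turned to 0.32 without WT replicates 3 and 4 and to 0.24 in the deposited normalized values, both past it. Phactr1 held 366 to 405 CPM in Neat1-/- mice and 378 to 407 CPM in WT mice. Gm16041, inside the G-protein regulator gene Rgs20, had 1.62, 1.12, 1.04 and 0.649 CPM in Neat1-/- mice and 1.55, 1.21, 4.32, 3.19 and 0.789 CPM in WT mice. 4932413F04Rik, inside Tmem108, had 0.669, 0.804, 1.5 and 0.936 CPM in Neat1-/- mice and 0.898, 1.16, 3.56, 2.85 and 0.904 CPM in WT mice. Gm3896, inside the homeobox gene Pknox2, had 0.726 to 1.62 CPM in Neat1-/- mice, 0.691 to 1.40 CPM in WT replicates 1, 2 and 5, and 4.00 and 3.90 CPM in the same pair of WT libraries. These 4 were, with Gm16299, the members of highest variation within WT mice, and Gm16299 (inside Rbm20) differed in that its high value, 3.66 CPM, was in WT replicate 1. Over all members the coefficient of variation had a median of 13.0% in Neat1-/- mice and 20.0% in WT mice, and was larger in WT mice for 261 of 345.

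The comparison of genotypes asked whether loss of Neat1 RNA changed the antisense RNAs. With all 9 libraries and age as a covariate, 29 members passed an unadjusted p of 0.05 with a lower level in Neat1-/- mice and 5 with a higher level (edgeR quasi-likelihood test), against 4.27% of all genes tested higher and 4.03% lower. None passed an adjusted p of 0.05, the smallest being 0.382, where 0.0709% of all genes did, and DESeq2 and limma with voom quality weights also called 0 (with 5 and 12 higher and 33 and 21 lower at an unadjusted p under 0.05). The median log2 fold change of the members was -0.09, and 225 of the 345 values were negative, whereas the median over all genes was -0.00. Single libraries moved the count of lower members to 12 without WT replicate 3, 11 without WT replicate 4, 51 without WT replicate 2, 76 without WT replicate 5, and 17, 16 and 13 without Neat1-/- replicates 1, 3 and 4, and the count of higher members to 12 without WT replicate 3 and to 3 without Neat1-/- replicate 1 or 4. Shares over all genes were not counted for these omissions, so a change cannot be assigned to the members alone. In the deposited normalized values, which hold 161 of the members, 26 were higher and 5 lower. In the edgeR fit of all 9 libraries 2 of these 161 were higher and 5 lower, so only the count of higher members moved. With the deposited values Gm26782, Srrm4os and 9330179D12Rik passed an adjusted p of 0.05 (limma), the last 2 named after their values were seen.

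Of the 29 lower members, 26 had WT replicates 3 and 4 as the highest pair. The rule's mean included both libraries, so it can favor RNAs that are high in them and thus count as lower in Neat1-/- mice. Without these 2 libraries the counts turned round, to 29 members higher and 4 lower, with backgrounds of 3.81% and 3.48%, a median log2 fold change of 0.04 and again 0 at an adjusted p of 0.05. In the 81 members within a coding gene and without exonic overlap, 0 were higher and 17 lower with all libraries (median -0.39), and 10 higher and 2 lower without WT replicates 3 and 4 (median 0.07). In the 89 head-to-head members, 2 were higher and 4 lower with all libraries (median 0.03), and 8 higher and 2 lower without those libraries (median 0.03). Members that kept p under 0.05 and their direction in both fits numbered 9, of which 5 (Gm26782, A330041J22Rik, Gm9754, Ict1os and Gm2415) were higher in Neat1-/- mice and 4, among them E030013I19Rik, Pitpnm2os1 and Gm15941, were lower. Gm9754, Ict1os, Gm2415 and E030013I19Rik were named after their values were seen. The fits share every library but these 2, so the second is no independent test of the first. Leaving out the highest WT pair raises the fold change of such members, so the turn in direction follows in part from that choice. The share of all genes that passed in both fits was not counted.

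**Figure D3:**
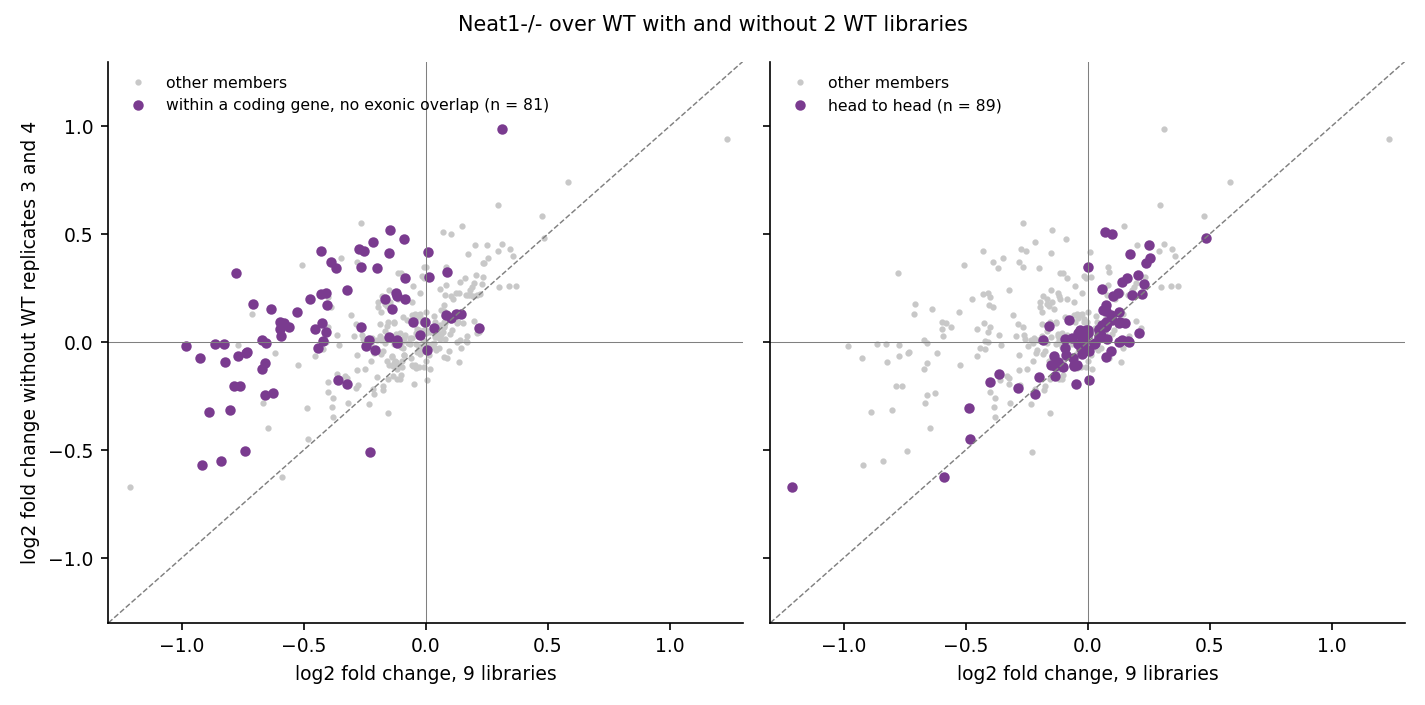
Log2 fold change (Neat1-/- over WT, edgeR) of the 345 antisense RNAs with all 9 libraries (horizontal axis) and without WT replicates 3 and 4 (vertical axis), 1 point per gene, with the 81 members within a coding gene and without exonic overlap (left panel) and the 89 head-to-head members (right panel) in purple and the line of equal values dashed. The first set has a median of -0.39 along the horizontal axis and 0.07 along the vertical axis, the head-to-head set 0.03 along both.

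All 4 Neat1-/- libraries lay above all 5 WT libraries for 2 members and below them for 5, where 1.66% of all genes did the one and 1.01% the other. The 2 higher members were Gm26782 and A330041J22Rik, both head to head with a coding gene. Gm26782 (ENSMUSG00000097431, chr14:50870324-50880603, plus strand) overlaps the start of Tep1, which encodes a telomerase-associated protein, by 237 bases. It had 17.0, 15.5, 16.1 and 15.9 CPM in Neat1-/- mice and 12.8, 14.5, 14.3, 13.6 and 14.0 CPM in WT mice. WT replicates 3 and 4 were within the range of the other WT mice here, and the log2 fold change was 0.22 ± 0.06 (SE; edgeR adjusted p = 0.382). Tep1 differed by -0.01 ± 0.08 (SE), and the ratio of Gm26782 to Tep1 by 0.23 on the log2 scale (exact permutation p = 0.0238).

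A330041J22Rik (ENSMUSG00000087466, chr9:86695460-86701253, plus strand) starts 493 bases inside Me1, the gene of cytosolic malic enzyme, on the other strand. It had 1.74, 1.40, 2.04 and 1.45 CPM in Neat1-/- mice and 0.898, 1.29, 1.11, 1.37 and 1.23 CPM in WT mice. The log2 fold change was 0.49 ± 0.17 with all libraries (SE; edgeR adjusted p = 0.543) and 0.48 without WT replicates 3 and 4. Me1 had 22.7 to 24.7 CPM in Neat1-/- mice and 23.5 to 25.4 CPM in WT mice, and the ratio to Me1 differed by 0.52 (exact permutation p = 0.00794). Gm26782 and A330041J22Rik were named because their genotypes did not overlap, so the permutation p-values of their ratios are no independent support.

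The 5 lower members were Gm15941, Gm16638, 4930527B05Rik, Nron and Gm12758, the last named only because it completes the count. Gm15941, 4930527B05Rik and Nron were under 1 CPM in all 4 Neat1-/- mice, so their place among the members rested on WT libraries. Gm15941 (chr15:37421134-37433414) had 0.763, 0.472, 0.668 and 0.478 CPM in Neat1-/- mice and 0.849, 0.852, 2.16, 2.21 and 1.03 CPM in WT mice. Its log2 fold change was -1.21 ± 0.30 (SE; edgeR adjusted p = 0.382) and -0.67 without WT replicates 3 and 4. Its partner 4930447A16Rik had 0.350 to 0.603 CPM in Neat1-/- mice and 0.474, 0.482, 1.55, 1.44 and 0.444 CPM in WT mice, so that the same WT libraries were high in the counts of both genes. As the strand setting is not stated, these counts do not show which strand the reads came from. Gm15941 also overlaps a coding gene on its own strand.

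Nron, which in other cells holds the transcription factor NFAT in the cytoplasm and here lies inside Mvb12b (chr2:33805816-33813591), a gene of the ESCRT-I sorting complex, had 0.778, 0.909, 0.848 and 0.898 CPM in Neat1-/- mice and 1.09, 0.916, 2.16, 1.48 and 1.02 CPM in WT mice. Its highest Neat1-/- value was close to its lowest WT value, and the log2 fold change was -0.63 ± 0.26 with all libraries (SE) and -0.23 without WT replicates 3 and 4. 4930527B05Rik, inside the acid-sensing channel gene Asic2, had 0.685, 0.664, 0.619 and 0.707 CPM in Neat1-/- mice and 0.931, 0.740, 1.99, 1.80 and 0.854 CPM in WT mice. Its fold change was -0.89 with all libraries and -0.32 without those libraries. Gm16638, tail to tail with Tmc3 and with 3961 bases of shared exon, was the most even of the set, at 1.87, 1.94, 1.73 and 1.66 CPM in Neat1-/- mice and 2.38, 2.19, 2.53, 2.55 and 2.12 CPM in WT mice (log2 fold change -0.38 ± 0.13, SE; -0.30 without WT replicates 3 and 4). Gm12758 had 1.09 to 1.19 CPM in Neat1-/- mice and 1.22 to 1.95 CPM in WT mice and did not reach an unadjusted p of 0.05 in edgeR (0.0934).

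**Figure D4:**
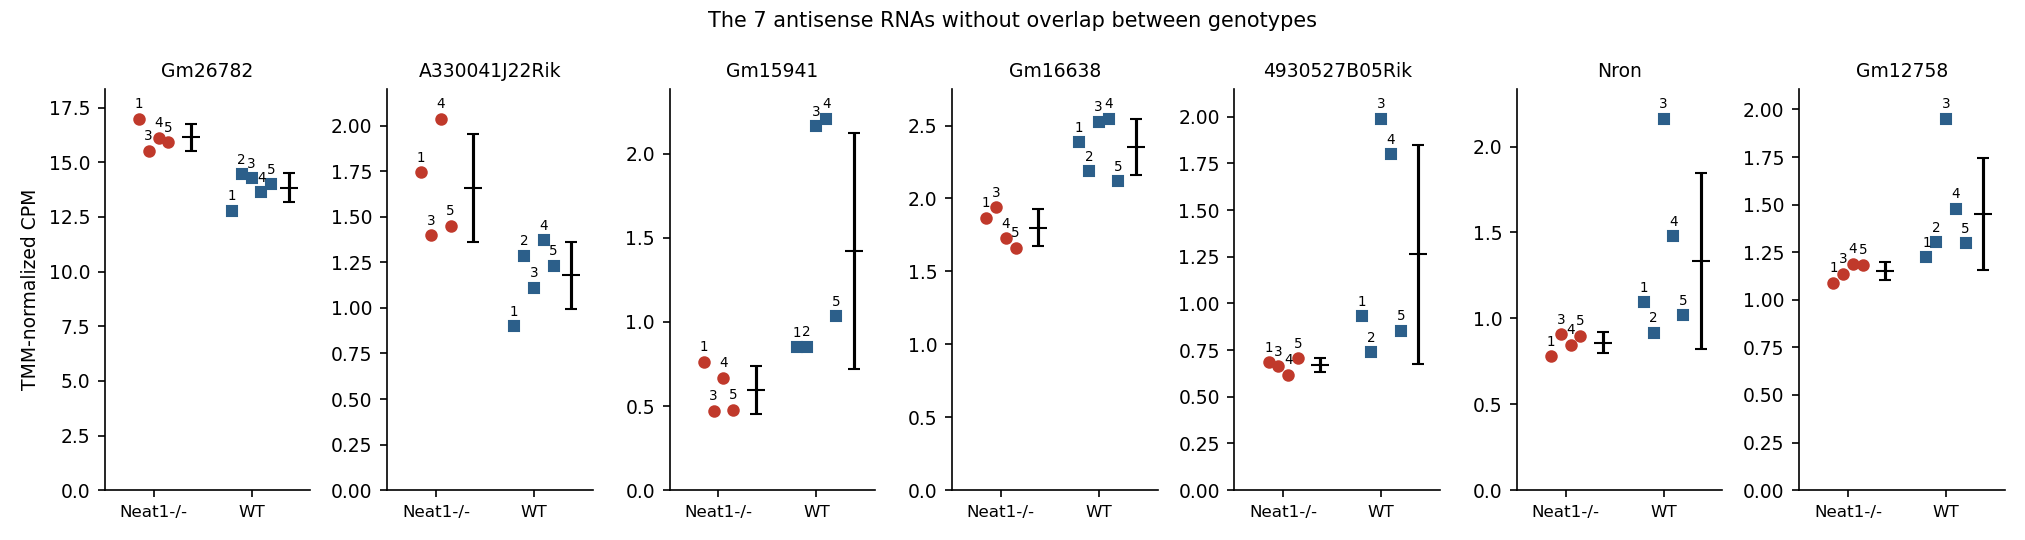
TMM-normalized CPM (vertical axes, each from 0) in each of 4 Neat1-/- mice (red circles, left) and 5 WT mice (blue squares, right), numbered by replicate, for the 7 antisense RNAs whose genotypes did not overlap, with the mean and SD in black. WT replicates 3 and 4 stand at 2.16 and 2.21 CPM in Gm15941, against at most 1.03 CPM in the other WT mice, and within the WT range in Gm26782.

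Pitpnm2os1 was lower in both fits although its genotypes overlapped. Pitpnm2os1, inside the phosphatidylinositol transfer protein gene Pitpnm2 (chr5:124229725-124237137), had 1.03, 0.682, 1.09 and 0.649 CPM in Neat1-/- mice and 1.13, 0.868, 2.35, 1.94 and 1.54 CPM in WT mice. Its log2 fold change was -0.84 ± 0.24 (SE; edgeR adjusted p = 0.453) and -0.55 without WT replicates 3 and 4. WT replicate 2 fell among the Neat1-/- mice.

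Gm15564 had the largest positive fold change, 1.24 ± 0.71 on the log2 scale (SE), which did not pass the test (unadjusted p = 0.105 from edgeR). Its values were 11.5, 2.95, 41.0 and 3.00 CPM in Neat1-/- mice and 5.76, 4.02, 8.57, 2.28 and 2.61 CPM in WT mice, so that Neat1-/- replicate 4 set the mean. The fold change was 0.32 without that library, and it passed an unadjusted p of 0.05 without Neat1-/- replicate 3 (1.65) or 5 (1.85), with no age term (1.66) and with no low-count filter (1.24). Its partner Parp9, an interferon-responsive gene, did not vary in this way, at 3.95 to 5.65 CPM in Neat1-/- mice and 4.36 to 5.08 CPM in WT mice.

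The coding genes opposite the members were also compared. Of the 367 tested, 21 passed an unadjusted p of 0.05 with a higher and 13 with a lower level in Neat1-/- mice, which is 5.72% and 3.54%, near the backgrounds of 4.27% and 4.03%, and 24 and 11 without WT replicates 3 and 4. The lower count was 37 without WT replicate 5, and 6 and 7 without Neat1-/- replicates 1 and 3. One, Ppfia3, which encodes the presynaptic scaffold liprin-alpha-3, passed an adjusted p of 0.05. Ppfia3 had 273, 267, 263 and 274 CPM in Neat1-/- mice and 233, 243, 221, 226 and 233 CPM in WT mice, a log2 fold change of 0.22 ± 0.03 (SE; edgeR adjusted p = 0.0171; 0.19 and 0.0447 without WT replicates 3 and 4). The genotypes did not overlap. Leaving out WT replicate 1 or 4, or any single Neat1-/- library, ended the call, although the fold change stayed between 0.20 and 0.23 over all single-library omissions. Its antisense RNA Mtag2 (chr7:45366163-45367948), which starts 856 bases inside it, had 1.51, 1.66, 1.61 and 1.53 CPM in Neat1-/- mice and 1.16, 1.13, 1.28, 1.85 and 1.66 CPM in WT mice. These ranges overlapped, with a log2 fold change of 0.18 ± 0.16 (SE; unadjusted p = 0.273 from edgeR), and Lin7b, the other gene that Mtag2 overlaps, differed by 0.05 ± 0.04. Nr2f1, opposite A830082K12Rik, had 65.5, 68.7, 68.1 and 65.7 CPM in Neat1-/- mice and 61.6, 60.3, 58.2, 63.6 and 58.2 CPM in WT mice. The genotypes did not overlap, but the difference of 0.15 ± 0.04 (SE) did not pass over all genes (edgeR adjusted p = 0.355). It passed in the deposited normalized values, at 0.16 on the log2 scale (limma adjusted p = 0.0225). The ratio of A830082K12Rik to Nr2f1 differed by -0.18 (exact permutation p = 0.0159). That ratio holds the same Nr2f1 values, so its p-value is no independent support.

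Within a mouse, the level of an antisense RNA was set against that of its coding gene as a log2 ratio, which was compared between genotypes with limma over all 1078 antisense-coding pairs that could be tested. Among the 376 pairs of members, 26 had an unadjusted p under 0.05 (6.91%, against 5.75% of all pairs), 9 with a higher and 17 with a lower ratio in Neat1-/- mice, and 0 passed an adjusted p of 0.05. Without WT replicates 3 and 4 these counts were 26 higher and 10 lower. Leaving out 1 library gave 27 lower ratios without WT replicate 2, 71 without WT replicate 5, 10 without WT replicate 4 or Neat1-/- replicate 3 and 11 without Neat1-/- replicate 1 or 4, and 4, 4 and 5 higher ratios without Neat1-/- replicates 1, 4 and 5. The share over all pairs was counted only with every library included, so the counts with libraries left out have no background beside them. Gm28370, inside Gm20498, had the smallest p. It stood at 19.1 to 21.7 CPM in Neat1-/- mice and 18.0 to 21.2 CPM in WT mice, while Gm20498 was at 0.638 to 1.11 CPM and 0.820 to 1.32 CPM, and the ratio was 0.50 higher in Neat1-/- mice on the log2 scale (limma adjusted p = 0.525; exact permutation p = 0.0317). Gm13629, tail to tail with the sodium channel gene Scn9a, had 5.59 to 6.26 CPM in Neat1-/- mice and 4.82 to 5.66 CPM in WT mice. Scn9a had 6.28 to 6.43 CPM in Neat1-/- mice and 7.04, 6.41, 9.89, 9.12 and 6.47 CPM in WT mice, again highest in WT replicates 3 and 4, and the ratio differed by 0.45 (exact permutation p = 0.0159). Gm28370 and Gm13629 were named for a small p of this same ratio, so their permutation p-values are no independent support. For Pitpnm2os1 the ratio differed by -0.80, with Pitpnm2 at 0.02 ± 0.04 (SE). For Gm26781 and Gpr25, an orphan receptor gene under 0.5 CPM on average in each genotype, the ratio differed by -1.09.

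Antisense RNA and coding gene both had an unadjusted p under 0.05 in 3 of the 376 tested pairs, each with the same direction in the counts of both genes, and these were named after their values were seen. In the same pairs 36 had the antisense RNA under it and 36 the coding gene, and the product of these shares comes to 3.45 pairs, near the 3 found. Gm37459 had 17.6, 15.8, 17.9 and 17.1 CPM in Neat1-/- mice and 18.6, 18.8, 20.9, 24.4 and 17.3 CPM in WT mice (log2 fold change -0.22 ± 0.08, SE), and Pex5l, which encodes a partner of HCN channels, differed by -0.12 ± 0.04. Gm10538 differed by -0.79 ± 0.29 and its host Nfasc, the gene of the axonal adhesion protein neurofascin, by -0.23 ± 0.05 (SE; edgeR adjusted p = 0.319), with Gm10538 highest in WT replicates 3 and 4 at 4.34 and 4.59 CPM. Nfasc passed an adjusted p of 0.05 with DESeq2 (0.00529), with no low-count filter (0.00899) and in the deposited normalized values (0.0361 from limma). Without WT replicates 3 and 4 the fold changes of Gm37459 and Gm10538 were -0.09 and -0.20. Gm2415 and Ctdspl, a phosphatase gene that overlaps it by 3 bases at the start, were 0.19 ± 0.09 and 0.12 ± 0.04 higher in Neat1-/- mice (SE).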

How the data were processed

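RNA was extracted from dissected frontal cortex of 9 mice and sequenced after ribosomal RNA depletion. The deposited counts are raw read counts per Ensembl gene on mm10. According to the submitters' notes on processing, reads were aligned with STAR 2.5.0 and counted with HTSeq 0.8.0, whereas the study's supplementary methods name TopHat, Bowtie and HTSeq in intersection-strict mode, and the strand setting of the counting is not given in the sources used here. The deposited normalized values are log2 CPM that the authors scaled with TMM and modelled in limma, for 13456 genes, and they were used only as an alternative input, fitted here without an age term. Columns were assigned to mice by the sample labels.

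GENCODE vM21 gave gene types, positions and names (42548 of 43629 IDs, 99.9% of counts), and 0 rows named no gene. Overlap was counted on gene bodies on opposite strands from 1 base, and merged exons gave the exonic overlap. Genotype was tested on the counts with edgeR 4.0.16 (quasi-likelihood test, TMM factors, filterByExpr, age in months as covariate) over 19753 genes with Benjamini-Hochberg adjustment, with a common biological coefficient of variation of 0.0922. The antisense to coding log2 ratio (prior count 2) was tested with limma 3.58.1 over 1078 pairs, with age as covariate. Named pairs were also tested with the two-sided exact permutation test over 126 arrangements of the mice. That test used the log2 ratio of TMM-normalized CPM with a small constant added and no age term. Its p-values therefore do not belong to the limma differences printed beside them. DESeq2 1.42.0 and limma with voom quality weights served as alternatives, beside other size factors, filters, age terms, levels and overlaps, the replicate number as a block, and each library left out. The fits were tested on simulated data with known changes. Fold changes are Neat1-/- over WT, CPM values carry TMM factors unless given by library total, and p-values measure the spread between these mice.

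The members and lists were chosen with earlier results of these data known. Named members were the 8 highest by CPM, the 5 highest per kb, those past an unadjusted p of 0.05 without overlap between genotypes (at most 8 per direction), those that passed an adjusted p or whose coding gene did, the 5 smallest ratio p-values, the 5 most variable within WT mice, the 3 on each side of the level, and the antisense RNAs known from earlier work. RefSeq windows (GRCm38.p6) were searched for CG and TATAAA, and a match is a description only. 1 antisense RNA that the rule names is not reported here.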

Additional observations from a re-analysis of the deposited data

Results flagged for a closer look

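A gap between 1 mouse and its group beyond Dixon's 95% limit was looked for in each genotype of the 345 members. It was found in 26 of 690 groups (3.77%), where chance gives about 1 in 20, and 11 of the 26 were in Neat1-/- replicate 3. Among the named members it was found for 2 values. Gm26833, a single-exon RNA with no coding gene on the other strand, had 7.48 CPM in Neat1-/- replicate 3, 6.19 to 6.34 CPM in the other Neat1-/- mice and 6.05 to 7.55 CPM in WT mice. Gm16299, inside Rbm20, had 0.577 to 2.09 CPM in Neat1-/- mice and 0.784 to 1.00 CPM in WT mice other than replicate 1, which had 3.66 CPM.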

How the results depend on the processing

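The counts of members at an unadjusted p under 0.05 depended on which WT libraries entered, and less on the scaling. Members higher in Neat1-/- mice numbered 5, and 8 with no age term, 3 with age as a factor, 12 with limma and voom quality weights, 26 in the deposited normalized values, 29 without WT replicates 3 and 4, 2 at a level of 2 CPM, and 3 to 12 when single libraries were left out. Members lower numbered 29, and 45 with age as a factor, 53 with no low-count filter, 5 in the deposited values, 4 without WT replicates 3 and 4, 49 at a level of 0.5 CPM, 9 at 2 CPM, and 11 to 76 when single libraries were left out. The deposited values hold only 161 members, of which 2 were higher and 5 lower in the main fit, so there the lower count did not change. At an adjusted p of 0.05 there were 0, except 1 with no low-count filter (Gm15941) and 3 in the deposited values; leaving out single libraries gave 0. For the coding genes, 42 were higher and 25 lower in the deposited values, and 3 with no low-count filter, 4 with DESeq2 and 11 in the deposited values passed an adjusted p; leaving out single libraries gave 14 to 26 higher, 6 to 37 lower and 0 to 1 passing. For the ratio, pairs with no exonic overlap gave 1 higher and 5 lower, age as a factor 31 lower, the fits without WT replicates 3 and 4 gave 26 higher and 10 lower, and single libraries left out gave 4 to 13 higher, 10 to 71 lower and 0 passing an adjusted p. Shares over all genes were counted only for the main fit and the fit without WT replicates 3 and 4, and shares over all pairs only for the main fit. The other counts therefore have no background beside them. The cause was not tested. For the genes named by rule and their coding genes, 1158 comparisons with an alternative kept direction and side of the threshold, 50 passed it in addition, 44 no longer did and 80, in 22 genes, changed sign. In 78 of these neither value passed an unadjusted p of 0.05, and the other 2 were those of Gm15810, which passed it with the sign turned. With age as a factor the log2 fold changes turned to -0.00924 for Emx2os, -0.0155 for Gm11767, 0.00318 for Asic2, -3.97e-05 for Kremen2, 0.0124 for Kpna1, 0.00704 for Phactr1, 0.00991 for Mvb12b and 0.00515 for Rab10. In the deposited normalized values the log2 fold changes turned to -0.00423 for 4933431E20Rik, 0.0368 for A830082K12Rik, 0.238 for Gm15810, -0.0308 for Tug1, -0.00132 for Pdgfa and 0.0501 for Tep1. With library totals alone the log2 fold changes turned to -0.00468 for 4933431E20Rik, -0.00605 for Tug1 and -0.00152 for Metap1d. With limma and voom quality weights the log2 fold changes turned to -0.00158 for Gm11767, -0.00255 for Tug1, 0.0226 for Parp9, 0.0132 for Tep1 and -0.000523 for Pitpnm2. With no low-count filter the log2 fold change turned to 0.000699 for Parp9. With the replicate block the log2 fold changes turned to 0.0215 for Asic2, -0.00321 for Metap1d, 0.0219 for Parp9, 0.00896 for Tep1 and 0.00800 for Mvb12b. With the stricter low-count filter the log2 fold changes turned to -0.00497 for 4933431E20Rik, -0.00636 for Tug1 and -0.0019 for Metap1d. Without WT replicates 3 and 4 the log2 fold changes turned to -0.00706 for 4933431E20Rik, -0.00199 for 6330403L08Rik, 0.0346 for A830082K12Rik, 0.322 for Gm15810, -0.0409 for Tug1, 0.0568 for 4930447A16Rik, -0.0069 for Camsap2 and 0.0709 for Tep1. Single libraries left out gave log2 fold changes of -0.0114 to 0.011 for 4933431E20Rik, -0.0182 to 0.0809 for 6330403L08Rik, -0.0469 to 0.019 for Asic2, -0.00394 to 0.0308 for Camsap2, -0.0123 to 0.0636 for Dlx1, -0.0306 to 0.127 for Emx2os, -0.0694 to 0.241 for Gm11767, -0.712 to 0.326 for Gm16299, -0.00517 to 0.237 for Kremen2, -0.0063 to 0.0211 for Metap1d, -0.038 to 0.00817 for Mvb12b, -0.113 to 0.069 for Parp9, -0.0327 to 0.0157 for Phactr1, -0.0317 to 0.0377 for Pitpnm2, -0.0303 to 0.00916 for Rab10, -0.074 to 0.0336 for Tep1 and -0.0204 to 0.0205 for Tug1.

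Replicate numbers shared between genotypes did not pair the mice: deviations of same-numbered mice correlated at 0.044, -0.0447, 0.137 and -0.0773, so that only replicate 4 correlated best with its own number. With the replicate block the fit gave 3 members higher, 57 lower and 0 passing an adjusted p, 24 coding genes higher, 21 lower and 0 passing, and 8 ratios higher and 51 lower. Shares over all genes or pairs were not counted for that fit. The block also ended the call of Ppfia3 (log2 fold change 0.24).

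Members near 1 CPM rested on as few as 25 counts in a library. With 4 and 5 mice, an exact permutation p cannot go below 0.00794.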
